A study of Rattus norvegicus with 8 samples.

Results

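The 8 genes described here encode subunits of the voltage-gated sodium channel. They are the pore-forming alpha subunit genes Scn1a, Scn2a1, Scn3a, Scn8a and Scn9a and the auxiliary beta subunit genes Scn2b, Scn3b and Scn4b. Members were taken as the non-control spots that carry 1 of these 8 gene names, which gave 13 of the 43379 spots on the array and 8 of its 35199 gene names. Scn2a1 is the older symbol of Scn2a and is kept as the array gives it. RNA was taken from the dentate gyrus of ovariectomized (OVX) adult female Sprague-Dawley rats in which status epilepticus (SE) had been induced by kainic acid. The COS group (castrated, oil-injected, SE) held 4 rats and the CES group (castrated, estradiol-replaced, SE) held 4 rats. Both groups therefore shared the ovariectomy and the kainic acid, and they differed in whether estradiol benzoate or oil was injected. Per the labels the kainic acid dose was 16 mg/kg, SE was ended after 5 h, and the CES rats received 4 doses of 2 µg, of which 2 preceded SE. The methods of the study give another kainic acid dose, another drug to end SE and all estradiol doses before SE, a point the files leave unresolved. The methods also state the time of tissue collection in 2 different ways, once as a time after SE for all groups and once, for the expression samples, as a shorter time after continuous seizures began, so when these levels were read is uncertain. Rats without SE were not analysed here, so no value below measures the effect of SE itself.

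Voltage-gated sodium channels open on depolarization and carry the inward current of the action potential. A channel is built on a large alpha subunit, which holds the pore and the voltage sensors, and on smaller beta subunits with an immunoglobulin-like domain outside the cell, which alter gating and take part in cell adhesion. In central neurons the channels are densest in the axon initial segment, where ankyrin-G anchors them, and several drugs against seizures block them. Variants in the alpha subunit genes are a known cause of inherited epilepsies.

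Each array carried 2 rats of the same group, 1 labelled with Cy3 and 1 with Cy5, and the 4 arrays lay on 1 slide. A spot counted as valid in a rat when its mean signal was at least 2 times its local background. Between 32381 and 38553 spots per COS rat and between 30690 and 35352 per CES rat were valid. All levels below are log2 values of the background-subtracted signal relative to the median valid spot of the same channel, so that a level of 0 is the signal of that median spot. They compare rats for 1 gene and do not compare the abundance of different genes. Of the 8 members, all 8 had at least 1 spot valid in all rats, and none of their 13 spots was saturated. The median of the CES minus COS difference over all 21332 genes quantified was -0.25, and differences are also given relative to it.

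The members were read by 60-base probes, 4 of the 8 genes by 1 probe each and the other 4 by several. The sequences printed here are some of those of genes with several probes or with a probe near background, since the values of Scn2a1, Scn8a, Scn9a and Scn4b turn on which probe is read and the only probe of Scn2b was dim. They are in lower case throughout, as no part of a probe was singled out.
Scn2a1 A_44_P100365: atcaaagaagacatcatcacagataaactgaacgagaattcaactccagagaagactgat
Scn8a A_42_P677354: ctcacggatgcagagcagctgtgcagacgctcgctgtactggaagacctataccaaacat
Scn9a A_44_P113806: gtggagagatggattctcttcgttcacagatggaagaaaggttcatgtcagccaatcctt
Scn2b A_42_P597619: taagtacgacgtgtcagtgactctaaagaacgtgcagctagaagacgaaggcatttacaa
Scn4b A_43_P10334: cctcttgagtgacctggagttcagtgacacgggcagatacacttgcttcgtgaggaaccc

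The files place the probes on the rat genome build rn4. Those of Scn3a (chr3:47496272-47496331, minus strand), Scn2a1 (chr3:47720286-47720345 and chr3:47722600-47722659 among others, plus strand), Scn1a (chr3:48239066-48239125, minus strand) and Scn9a (chr3:48438851-48438910 and chr3:48442413-48442472, minus strand) lay within 946 kb of chromosome 3. The mapped Scn8a probe lay at chr7:139793908-139793967. On chromosome 8 were the probes of Scn3b (chr8:43253930-43253989), Scn2b (chr8:48077758-48077817) and Scn4b (chr8:48100318-48100377 and chr8:48106487-48106546), all on the plus strand. Whether a probe lies in a coding exon or an untranslated region was not analysed here, and cross-hybridisation between these related genes was not tested.

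Against the COS rats, limma called 6 of the 8 members higher in the CES rats and 0 lower, with Benjamini-Hochberg adjustment over all genes. Scn1a, Scn2a1, Scn8a and Scn9a rose by a similar amount, between 0.93 and 0.97 on the log2 scale, Scn3b rose by 1.08 and Scn2b by 0.56. Scn3a and Scn4b did not pass the test. By comparison, 5.8% of the 21332 genes were called higher (1238 genes), 28.3% lower (6038) and 34.1% in either direction. The median difference of the 8 members was 0.94, or 1.19 over the all-gene median. At an unadjusted p under 0.05 the same counts were 6 higher and 0 lower. The CES mean lay above the COS mean for all 8 members and for 31.5% of all genes. In whole tissue, a change in the number of cells that express a gene and a change in RNA per cell cannot be told apart. Every array held rats of 1 group, so the array could enter the test only as a random block.

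**Figure D1:**
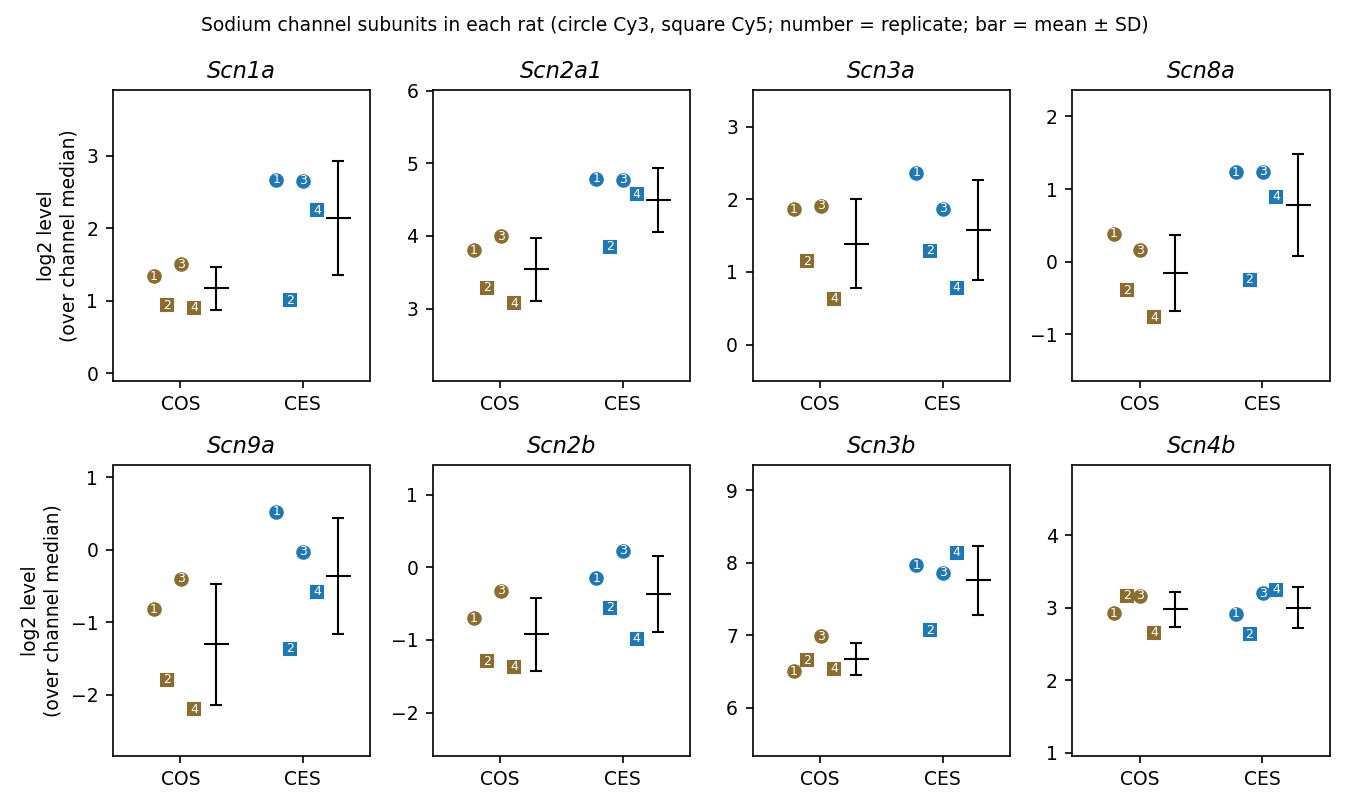
Log2 level of each subunit gene in each rat, relative to the median valid spot of its channel, in COS and CES (circles Cy3, squares Cy5, numbers are replicates, bars mean ± SD, n = 4; each panel spans its own range). Only for Scn3b do all 4 CES rats lie above all 4 COS rats, and CES replicate 2 is the lowest CES rat for 5 of the 6 genes called higher, all but Scn2b.

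The number of members called changed when single rats were left out. It was 3, 5, 1 and 2 without COS replicates 1, 2, 3 and 4 in turn. Without CES replicates 1, 2, 3 and 4 it was 2, 5, 6 and 6. At an unadjusted limma p under 0.05 it was 5 without COS replicate 1 and 6 without any other rat. Over the whole array 1238 genes were called higher with all rats. That count was 511 without COS replicate 1, 257 without COS replicate 3 and 1855 without CES replicate 2. With normexp background correction limma called 0 members (4 at an unadjusted p under 0.05). The methods' t-test, with Benjamini-Hochberg adjustment over all genes, also called 0 (2 at an unadjusted p under 0.05). The methods themselves describe a correction for redundant spots of a gene and a fold cut-off for each gene, neither of which was applied here. Without the filter on valid spots 2 members were called.

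Scaling moved all genes together. After loess within and Aquantile between arrays, 13.7% of genes were called higher (2928) and 9.69% lower (2067), so that 58.6% of calls were higher in place of 17.0%. The same 6 members were called higher and 0 lower under that scaling, with a median difference of 1.27. Counts were likewise 6 and 0 with quantile normalization, with each channel scaled over commonly valid spots and with the deposited log2 table, where the members' median differences were 1.28, 1.34 and 1.30.

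**Figure D2:**
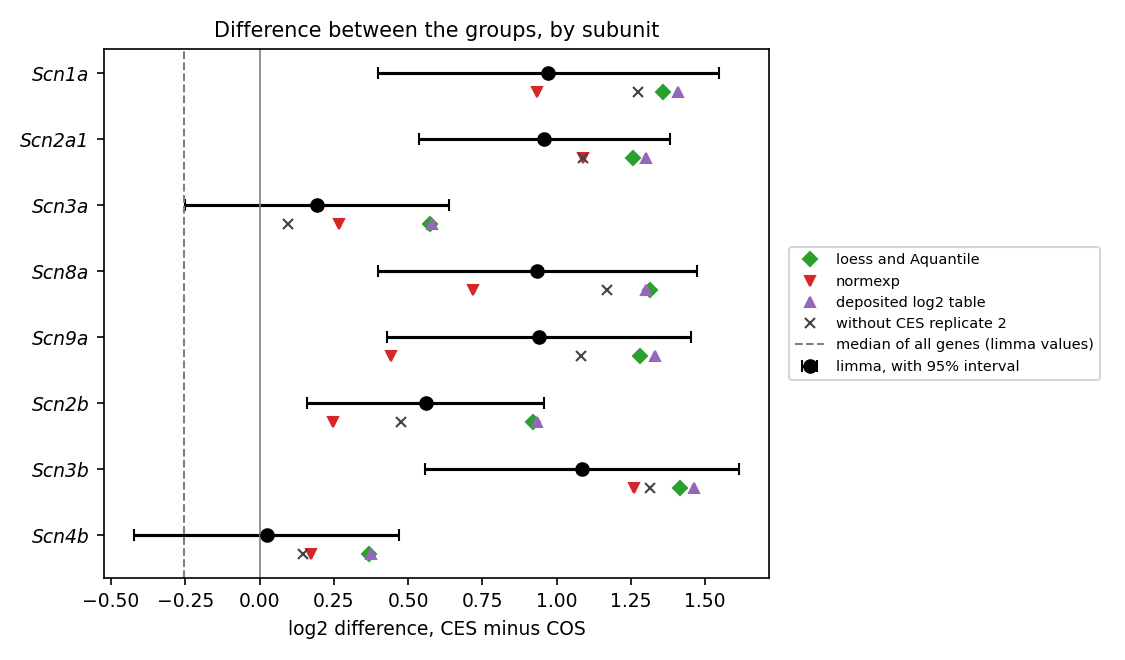
CES minus COS log2 difference of each subunit gene with its 95% interval from limma, beside the values under loess, normexp, the deposited table and without CES replicate 2 (dashed line, median of all genes at -0.25). Points of Scn3a and Scn4b lie closest to 0 under every setting drawn but normexp, where Scn2b lies between them.

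Among the alpha subunits, Scn1a encodes Nav1.1, a channel of central neurons that is prominent in parvalbumin interneurons and whose loss of function causes Dravet syndrome. Its log2 levels were 1.34, 0.94, 1.50 and 0.90 in COS replicates 1 to 4 and 2.66, 1.01, 2.65 and 2.24 in CES replicates 1 to 4. Thus 3 CES rats lay above every COS rat, and CES replicate 2 lay within the COS range. The mean rose from 1.17 ± 0.30 to 2.14 ± 0.78 (SD, n = 4 per group), a difference of 0.97 (SE 0.26, limma adjusted p = 0.0186) or 1.96-fold. The call was lost without COS replicate 1 (adjusted p = 0.0649), COS replicate 3 (0.102), COS replicate 4 (0.0518) or CES replicate 1 (0.0802). Across the settings tried the adjusted p ran from 0.00023 to 0.234.

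Scn2a1 encodes Nav1.2, found in the axon initial segment and in unmyelinated axons of excitatory neurons. Its log2 levels were 3.80, 3.29, 4.00 and 3.07 in the COS rats and 4.79, 3.85, 4.77 and 4.57 in the CES rats. Again CES replicate 2 was the lowest CES rat and the only one within the COS range. The mean rose from 3.54 ± 0.43 to 4.50 ± 0.44 (SD, n = 4 per group), a difference of 0.96 (SE 0.19, limma adjusted p = 0.00650) or 1.94-fold. Scn2a1 was the member whose call held when any single rat was left out, where the highest adjusted p was 0.0485.

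The 3 probes of Scn2a1 were all higher on average in CES, by unequal amounts. Probe A_42_P529319 read 3.77, 3.57, 4.05 and 3.38 in COS and 5.11, 4.49, 5.17 and 5.06 in CES, with no overlap and a difference of 1.27 (SE 0.18, limma adjusted p = 0.00351 over 25698 probes). Probe A_44_P100365, printed above, rose by 0.72 (SE 0.20, adjusted p = 0.0196). The remaining Scn2a1 probe differed by 0.82 (SE 0.31, adjusted p = 0.0611) and did not pass, with CES replicate 2 at 0.69 below every COS rat. Over all probes fitted on their own, 5.48% were called higher and 29% lower.

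Scn8a encodes Nav1.6, the main channel of mature axon initial segments and nodes of Ranvier, which supports repetitive firing. Levels on the log2 scale were 0.38, -0.40, 0.16 and -0.77 in COS and 1.23, -0.25, 1.24 and 0.89 in CES. Here too 3 CES rats exceeded every COS rat and CES replicate 2 did not. The mean rose from -0.16 ± 0.52 to 0.78 ± 0.70 (SD, n = 4 per group), a difference of 0.93 (SE 0.24, limma adjusted p = 0.0165) or 1.91-fold. The call was lost without COS replicate 3 (adjusted p = 0.0924), COS replicate 4 (0.0594) or CES replicate 1 (0.0663), and across the settings tried p ran from 0.000655 to 0.313. This value came from probe A_42_P677354 alone. A further Scn8a probe was valid in 1 COS rat and 0 CES rats and not well above background in any rat, so no fold is given for it. Its mean log2 signal was -3.84 in COS and -3.73 in CES.

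Scn9a encodes Nav1.7, best known from sensory neurons that signal pain. Its levels (log2) were -0.82, -1.79, -0.40 and -2.20 in COS and 0.53, -1.36, -0.028 and -0.58 in CES. The Cy3 rats (replicates 1 and 3) were above the Cy5 rats (replicates 2 and 4) in both groups, and CES replicates 1 and 3 lay above every COS rat. The mean rose from -1.30 ± 0.84 to -0.36 ± 0.81 (SD, n = 4 per group), a difference of 0.94 (SE 0.23, limma adjusted p = 0.0136) or 1.92-fold. The call was lost without COS replicate 1 (adjusted p = 0.0526), COS replicate 3 (0.0629), COS replicate 4 (0.0646) or CES replicate 1 (0.0691), and across the settings tried p ran from 0.00382 to 0.673. In 3 of the COS rats and 4 of the CES rats its probe A_44_P113806 stood well above background. A second Scn9a probe, A_44_P386383, was valid in 4 COS and 3 CES rats but well above background in 0 and 1, and no fold is given for it. Its mean log2 signal, near background, was -2.26 in COS and -2.86 in CES, opposite in direction to the probe used.

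Scn3a encodes Nav1.3, which is abundant in the brain before birth and low in the adult rodent brain. On the log2 scale it read 1.86, 1.15, 1.91 and 0.63 in COS and 2.37, 1.29, 1.88 and 0.78 in CES. The groups overlapped over most of their range, with only CES replicate 1 above every COS rat. The means were 1.39 ± 0.61 and 1.58 ± 0.69 (SD, n = 4 per group), and the difference was 0.19 (SE 0.20, limma adjusted p = 0.483), with a 95% interval from -0.25 to 0.64. That interval leaves room for a change in either direction. Over the all-gene median the difference was 0.45. The unshifted difference depended on the scaling, at 0.57 after loess (adjusted p = 0.0691) and 0.64 for spots well above background (adjusted p = 0.0829). Without single rats it ran from 0.096 (without CES replicate 2) to 0.35 (without CES replicate 4). It was not called under any setting run, with a lowest limma adjusted p of 0.0582, reached with scaling over commonly valid spots. At an unadjusted limma p under 0.05 it passed after loess and quantile normalization, with scaling over commonly valid spots and with the deposited table. The same was true for spots well above background.

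Among the beta subunits, Scn3b encodes a subunit that binds the alpha subunit without a disulfide bond. Its log2 levels were 6.50, 6.66, 6.99 and 6.54 in COS and 7.96, 7.07, 7.86 and 8.13 in CES. All 4 CES rats lay above all 4 COS rats, with CES replicate 2 closest to the COS range. Such separation was found for 1.61% of genes in this direction and for 19.8% in the other. The mean rose from 6.67 ± 0.22 to 7.76 ± 0.47 (SD, n = 4 per group), a difference of 1.08 (SE 0.24, limma adjusted p = 0.00903) or 2.12-fold. The call was lost without COS replicate 3 (adjusted p = 0.0561), and across the settings tried p ran from 0.00012 to 0.0937.

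Scn2b encodes a subunit that is joined to the alpha subunit by a disulfide bond and is cut by the secretase Bace1. Its log2 levels were -0.70, -1.29, -0.32 and -1.37 in COS and -0.15, -0.56, 0.23 and -0.98 in CES. As for all 5 alpha subunit genes, the Cy3 rats read higher than the Cy5 rats in both groups. CES replicates 2 and 4, both Cy5, lay within the COS range. The mean rose from -0.92 ± 0.50 to -0.36 ± 0.52 (SD, n = 4 per group), a difference of 0.56 (SE 0.18, limma adjusted p = 0.0369) or 1.47-fold. This was the call that depended most on single rats. It was lost without COS replicate 1 (adjusted p = 0.135), 2 (0.0718), 3 (0.0949) or 4 (0.114) and without CES replicate 1 (0.0646) or 2 (0.0639), and across the settings tried p ran from 0.0154 to 0.879. The scanner software marked its probe as well above background in 3 of the COS rats and all 4 CES rats.

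Scn4b encodes a further disulfide-linked subunit, whose intracellular tail can block the open channel and so give rise to resurgent current. Levels (log2) were 2.93, 3.17, 3.17 and 2.65 in COS and 2.92, 2.64, 3.20 and 3.25 in CES. The groups covered nearly the same range. The means were 2.98 ± 0.24 and 3.00 ± 0.29 (SD, n = 4 per group), a difference of 0.024 (SE 0.20, limma adjusted p = 0.937) with a 95% interval from -0.42 to 0.47. The sign of so small a difference turned when single rats were left out, from -0.14 without CES replicate 4 to 0.15 without CES replicate 2. Probe A_42_P674843 gave these values. The printed probe A_43_P10334 was valid in 3 COS rats and 1 CES rat and not well above background in any rat. Its mean log2 signal was -2.84 in COS and -3.18 in CES.

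**Figure D3:**
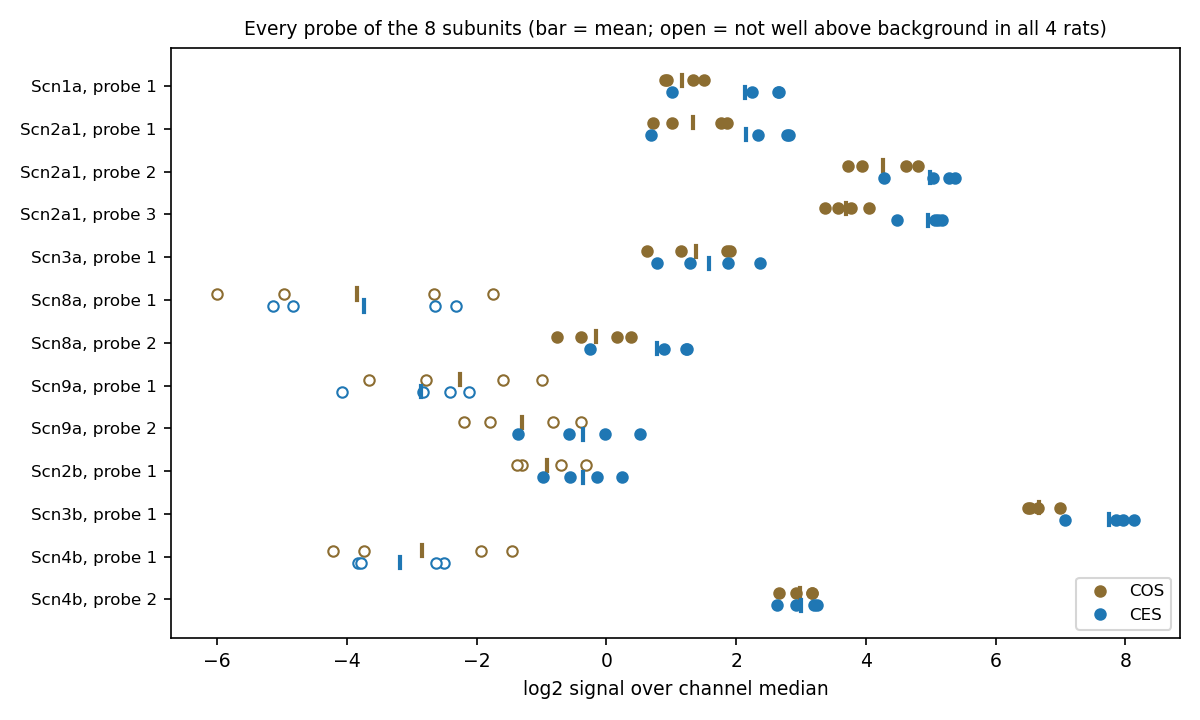
Log2 signal of each of the 13 probes in each rat, relative to the median valid spot of its channel (points are rats, bars are group means, n = 4; open points mark groups in which the probe was not well above background in all 4 rats). The 3 probes of Scn2a1 all have the CES mean to the right of the COS mean, while the dim probes of Scn8a, Scn9a and Scn4b lie at the left edge.

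Because a dye was shared by the replicates with the same parity, the groups were also compared within each dye, 2 rats against 2, with no test. The same 6 members were higher in CES without overlap in Cy3 and again in Cy5, while Scn3a and Scn4b overlapped in both. For all genes such separation was seen for 14.6% in Cy3 and 12.9% in Cy5. Scn1a differed by 1.24 in Cy3 and 0.71 in Cy5, the largest gap between dyes among the members. Scn2a1 differed by 0.88 and 1.03, Scn3b by 1.17 and 1.00, and Scn2b by 0.55 and 0.56.

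Expressed relative to the median gene of the same rat, Scn1a, Scn2a1, Scn2b and Scn3b were higher in every CES rat than in any COS rat. This was the case for 17.3% of all genes, with 11.9% in the other direction. On this scale Scn1a read 0.17, 0.056, 0.20 and 0.29 in COS and 1.99, 0.46, 1.76 and 1.88 in CES. Scn8a overlapped by a narrow margin, with CES replicate 2 at -0.79 and COS replicate 1 at -0.78. Scn9a, Scn3a and Scn4b overlapped as well.

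Whether pairs of members changed by different amounts was tested within each rat, where the scaling of the channel cancels when 1 gene is subtracted from another. Of 3 pairs compared, none passed an exact two-sided permutation test over 70 relabellings, whose smallest possible p was 0.0286. The within-rat value of Scn3a minus its neighbour Scn2a1 had a CES minus COS difference of -0.77 on the log2 scale (exact p = 0.0571, adjusted p = 0.171 over the 3 pairs), with values of -1.94, -2.14, -2.09 and -2.44 in COS and -2.42, -2.56, -2.90 and -3.79 in CES. Only CES replicate 1, at -2.42, lay within the COS range. For Scn1a against Scn2a1 the difference was 0.014 (exact permutation p = 0.914, adjusted p = 0.914). For Scn3b against Scn2b it was 0.53 (exact permutation p = 0.257, adjusted p = 0.386).

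Likeness over the 8 rats was measured as the root mean square difference of log2 levels after each gene was centred on its own mean, which also reflects the dye and the scaling that all genes of a rat share. Among the members the closest pairs were Scn1a with Scn8a (0.187), Scn2a1 with Scn8a (0.203) and Scn1a with Scn2a1 (0.227). Scn4b with Scn9a (0.778) and Scn3a with Scn3b (0.742) were the farthest apart. The nearest gene outside the set was Phactr3 for Scn1a (0.0878), Tmem14a for Scn8a (0.103), Tekt5 for Scn9a (0.162), Efcab6 for Scn2b (0.109) and Nap1l5 for Scn4b (0.0643). For Scn2a1 it was the unnamed transcript CO398039 (0.0730), for Scn3a CO402766 (0.0680) and for Scn3b LOC100364604 (0.0979). Phactr3 read 2.11, 1.75, 2.32 and 1.72 in COS and 3.34, 1.90, 3.54 and 3.24 in CES. Like Scn1a it had CES replicate 2 within the COS range. A like pattern follows from how these genes were picked, as the nearest over the same rats among all genes quantified.

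Among sodium channel genes outside the set, Scn7a, of glia in textbook accounts, differed by -0.63 and was not called by limma (adjusted p = 0.347). The muscle gene Scn4a and the sensory neuron genes Scn10a and Scn11a had no spot valid in all rats.

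Proteins that place, bind or cut the channel were counted from a list of 17 genes, of which 15 were quantified, 0 called higher and 1 lower by limma (0 and 3 at an unadjusted p under 0.05). Over all genes 5.8% were called higher and 28.3% lower. The list's median difference was -0.095, and 0.22 after loess. After loess 2 were called higher and 1 lower, against 13.7% and 9.69% of all genes. Without loess, the values were as follows. Ank3, which encodes ankyrin-G, differed by 0.64 (adjusted p = 0.117). Bace1 itself differed by -0.43 (adjusted p = 0.0671), at a weak signal with means of -1.84 in COS and -2.27 in CES.

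From a list of 7 regulators of sodium channel transcripts, all 7 were quantified, and limma called 0 higher and 2 lower. Counts at an unadjusted p under 0.05 were also 0 and 2. Over all genes the shares called were 5.8% higher and 28.3% lower. Rest, the repressor that binds sites near neuronal genes such as Scn2a, read -1.61, -2.15, -1.42 and -2.98 in COS and -1.74, -3.12, -1.22 and -3.84 in CES. In both groups the Cy3 rats read above the Cy5 rats, and the difference was -0.44 (SE 0.28, adjusted p = 0.254). The signal of Rest was weak. Its means of -2.04 in COS and -2.48 in CES were near those of the dim Scn9a probe (-2.26 and -2.86). Rcor1, a corepressor that Rest recruits, fell by 1.09 (SE 0.32, adjusted p = 0.0253), and Sin3a, another corepressor of Rest, by 0.51 (SE 0.15, adjusted p = 0.0292). Neither call held after loess, where the differences were -0.72 (adjusted p = 0.125) and -0.11 (adjusted p = 0.585). Of the 7 regulators, limma called 1 higher and 0 lower after loess, against 13.7% and 9.69% of all genes.

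Promoters of 6 members (250 bases before to 50 after the start, RefSeq, build GRCr8) were searched on both strands for 4 motifs. The full estrogen response element GGTCANNNTGACC was in 0 of 6, against 0.0269% of 33469 promoters. Its half-site GGTCA, a part of that motif, was in those of Scn2a and Scn9a, against 40.5% of promoters. The AP-1 motif TGANTCA was in that of Scn3a (7.33%) and the GC box GGGCGG in that of Scn8a (33.1%). The promoter of Scn2a, the member with the lowest adjusted p, is given with the half-site, here on the minus strand, in capitals (chr3:70710706-70711005, GRCr8, plus strand).
Scn2a promoter: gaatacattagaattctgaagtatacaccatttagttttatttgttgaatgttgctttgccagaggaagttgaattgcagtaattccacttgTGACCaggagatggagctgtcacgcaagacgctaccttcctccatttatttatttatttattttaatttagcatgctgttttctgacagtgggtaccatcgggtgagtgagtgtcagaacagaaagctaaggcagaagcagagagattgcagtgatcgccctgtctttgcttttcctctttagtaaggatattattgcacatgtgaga
A match says that these letters are in the window, and no binding was measured.

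Cell type markers moved between the groups as well, and their part in the sodium channel values was not tested. The counts of each marker list, here and below, stand against 5.8% of all genes called higher and 28.3% lower. After loess those shares were 13.7% and 9.69%. Of 8 neuron markers quantified, 2 were called higher and 1 lower, with a median difference of 0.25, or 0.50 relative to all genes. Stmn2, a tubulin-binding protein of neurons, rose by 0.79 (adjusted p = 0.0143) and Syt1, the calcium sensor of synaptic vesicles, by 0.59 (adjusted p = 0.0272), whereas the neurofilament gene Nefl fell by 0.82 (adjusted p = 0.0105). After loess 3 neuron markers were called higher and 1 lower, with a median difference of 0.56. The summed level of the neuron markers, without loess, ran from 9.20 to 9.57 in COS and from 9.30 to 9.68 in CES, so the groups overlapped. The summed level of the 8 sodium channel members ran from 6.81 to 7.33 in COS and from 7.33 to 8.34 in CES. Signals were added before the log2 step, and Scn3b alone ran from 6.50 to 6.99 and from 7.07 to 8.13. The sum therefore mostly follows the 1 probe of Scn3b. In that sum CES replicate 2, the lowest CES rat, and COS replicate 3, the highest COS rat, were level to 2 decimals.

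**Figure D4:**
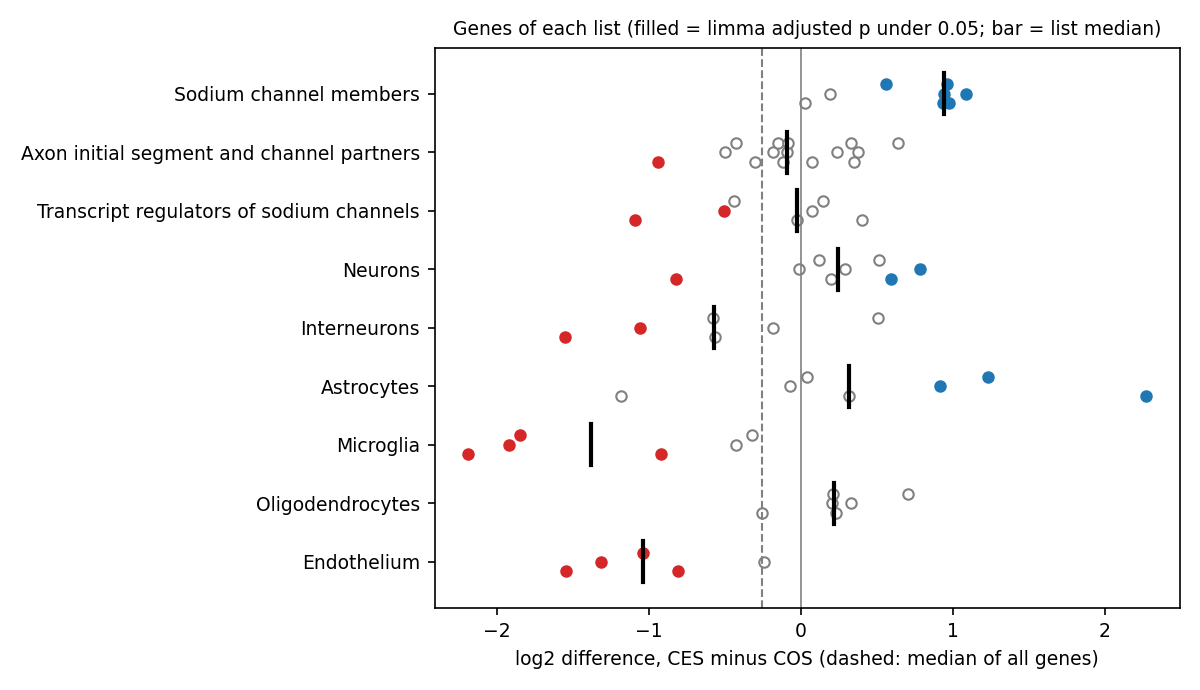
CES minus COS log2 difference of every quantified gene in each list drawn. Filled points have a limma adjusted p under 0.05, blue higher and red lower. Short bars are list medians, and the dashed line is the median of all genes at -0.25. The lists of other sodium channel genes, granule cell markers and choroid plexus markers are not drawn. The sodium channel members have a median of 0.94, against 0.25 for neuron markers and -1.38 for microglia markers.

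Interneuron markers held 0 genes called higher and 2 lower of 6 (1 and 4 at an unadjusted p under 0.05), namely the peptide genes Sst, which fell by 1.56 (adjusted p = 0.00650), and Vip, by 1.06 (adjusted p = 0.0106). After loess 1 was called higher and 2 lower, the former being Pvalb, the parvalbumin gene, with a difference of 0.51 (adjusted p = 0.0724) before and 0.86 (adjusted p = 0.0265) after loess. The summed level of the list ran from 7.63 to 8.43 in COS and from 6.29 to 7.37 in CES, of which Sst alone ran from 7.12 to 8.15 and from 5.35 to 6.89. Granule cell markers held 0 higher and 1 lower of 3 quantified (0 and 1 unadjusted), with Dsp, a desmosome gene, falling by 1.24 (adjusted p = 0.00701). Their summed level ran from 2.55 to 3.47 in COS and from 2.54 to 3.22 in CES. Prox1, the defining transcription factor of granule cells, was valid in 6 of 8 rats but not well above background in any rat, so the tissue label could not be checked on it. Calb1, also of granule cells, was read in all rats, with means of 2.93 and 2.65.

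Microglia markers held 0 higher and 4 lower of 6 (0 and 5 at an unadjusted p under 0.05), led by Cd68 at -2.19 (adjusted p = 0.00489), Itgam at -1.92 (0.0119), Tyrobp at -1.85 (0.00553) and Csf1r at -0.92 (0.00806). Their summed level ran from 5.75 to 6.57 in COS and from 4.50 to 5.34 in CES without overlap, and 3 remained called lower after loess. CES replicate 2 had the highest sum among the CES rats and, as given above, the lowest sodium channel sum of that group. Endothelial markers held 0 higher and 4 lower of 5 (0 and 4 unadjusted), with Esam at -1.55, Kdr at -1.31, Flt1 at -1.04 and Tek at -0.81. After loess 2 of the 5 were called lower. Their summed level ran from 5.11 to 5.76 in COS and from 4.20 to 5.15 in CES.

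Astrocyte markers held 3 higher and 0 lower of 7 (3 and 1 at an unadjusted p under 0.05), namely the gap junction gene Gjb6 at 2.27 (adjusted p = 0.00770), Aldh1l1 at 1.23 (0.00652) and Aldoc at 0.92 (0.0298). Gfap, the astrocyte filament gene, differed by -1.19 and was not called (adjusted p = 0.0620), with COS rats between 5.65 and 6.09 and CES rats between 3.57 and 5.66. After loess 4 astrocyte markers were called higher and 0 lower. The summed level of the astrocyte list, without loess, ran from 7.79 to 8.01 in COS and from 7.76 to 8.39 in CES. Of the 6 oligodendrocyte markers limma called 0 (0 at an unadjusted p under 0.05), and their summed level ran from 7.80 to 8.66 in COS and from 8.23 to 8.86 in CES. Of the 4 choroid plexus markers quantified it also called 0 (0 unadjusted). Their summed level varied widely within groups, from 3.73 to 9.26 in COS and from 3.99 to 7.58 in CES, with COS replicate 2 the highest. CES replicates 2 and 4 each read 7.58, and the other COS rats at most 5.57. Without COS replicate 2, 5 of the 8 sodium channel members were called higher, but the groups then still differed in this sum. Whether choroid plexus tissue bore on the sodium channel values was not tested.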

How the data were processed

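Dentate gyrus RNA of 4 COS and 4 CES rats was hybridised to 4 2-colour Agilent rat arrays, with the group, the replicate number and the dye of each rat as the labels give them. The authors deposited scanner files made with Agilent Feature Extraction 10.7.3.1 (per the submitters' processing notes), which give, for every channel, spot intensity and local background intensity before the authors' own normalization, and log2 values relative to the median of each column. In each channel these log2 values differed from the scanner signal by a constant with a spot-to-spot SD of at most 0.0637. The iterative renormalization of the methods is not in either.

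As in the methods, a spot was valid at a mean signal of at least 2 times the background median, which 27642 spots reached in every rat. Background-subtracted signal (mean minus background median) was scaled to the median valid spot of its channel, averaged over the spots of a gene name that were valid in every rat, and log2-transformed, which gave 21332 genes. The groups were compared by limma 3.58.1 (R 4.3.3, statmod 1.5.0, data.table version 1.17.8) fitting dye as fixed and array as a random block (consensus correlation -0.0064). Tests were two-sided, and p-values were adjusted by Benjamini-Hochberg across all genes, with a threshold of 0.05. Arrays give no read depth. The number of arrays limits the precision, and the median standard error of a difference was 0.197. The labels do not say more than that the rats are biological replicates. Replicate numbers share a dye (same-numbered deviations correlated at 0.32, 0.21, 0.29 and 0.34, and at -0.17, -0.28, -0.20 and 0.080 once the mean dye effect was removed) and were not taken as pairs. Within-rat gene pairs were compared by exact permutation tests. Python 3.11.15, numpy 2.4.6, pandas 2.3.3 and matplotlib 3.10.9 served for reading, sequences and plots.

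All members are named, and every probe is plotted. From the other lists up to 4 called genes with the largest differences are named, besides Rest and apart from a few genes and probe sequences that are not reported here, and for each member the nearest gene by root mean square difference. Scn7a, Ank3, Bace1, Calb1, Pvalb and Gfap were named after their values were seen. The members and lists were chosen with earlier results of these data known. Alternatives covered background correction, signal column, normalization, filters, blocks, probes, the methods' t-test, the deposited table and leaving out each rat, and the comparison within dyes was added after seeing the data.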

Additional observations from a re-analysis of the deposited data

How the results depend on the processing

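All 8 members kept a positive CES minus COS difference under every setting that used all 8 rats. Dim probes that were not valid in all rats were not fitted on their own. Of these, the probes of Scn9a and Scn4b had a lower mean in CES, and that of Scn8a a higher mean. Over 184 combinations of member and setting, 144 kept direction and side of the threshold, 36 kept the direction but were no longer called, and 4 changed sign. The 4 were Scn4b without COS replicate 1 (-0.026), COS replicate 4 (-0.086), CES replicate 3 (-0.089) or CES replicate 4 (-0.14), none of them called. Without single rats its difference ran from -0.14 to 0.15. The 144 include 23 for Scn3a and 19 for Scn4b, which were uncalled and stayed so. They also include settings by probe that repeat the same value where only 1 probe was valid in all rats. Among the 6 called members the call held least often for Scn2b (12 of 22 settings) and most often for Scn2a1 (22 of 25). Against 6 members called higher, 0 were called with normexp, 2 without the filter on valid spots and 1 to 6 without single rats. By the methods' t-test with Benjamini-Hochberg adjustment 0 were called. Under the mark for well above background 4 were called, since Scn9a and Scn2b were not quantified there, and without the dye term 5, since Scn2b was lost (adjusted p = 0.0538). The count of members called lower was 0 throughout. Over all genes, the counts called higher and lower were 1238 and 6038. They were 125 and 461 with normexp, 2928 and 2067 with loess, 3057 and 2226 with quantile normalization, 3348 and 1718 with scaling over commonly valid spots, 404 and 2696 without the filter, 1272 and 2828 at 3 times background, 2223 and 880 for spots well above background, 3275 and 1927 in the deposited table, and 0 and 0 by the methods' t-test, where 6103 genes passed unadjusted. Without single rats they ran from 257 to 1855 and from 914 to 7012. The cause was not tested. With the replicate number as a block, which holds the dye, 6 members were called higher and 0 lower, and 1241 and 6624 genes, and no member's call changed. Scn3a minus Scn2a1 reached an unadjusted p of 0.0286, the smallest the exact permutation test can give, with loess (-0.68), quantile normalization (-0.67) and without CES replicate 1 (-0.93), and these p-values were not adjusted over the 3 pairs. Without single rats it ran from -0.93 to -0.48. Scn1a minus Scn2a1 turned to -0.15 with normexp and ran from -0.064 to 0.18 without single rats, and Scn3b minus Scn2b from 0.19 to 0.69. No paired analysis was run for these pairs because the numbers share only a dye. What the signal limits is the reading of the dim probes of Scn8a, Scn9a and Scn4b.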
